A study of Chlamydomonas reinhardtii with 9 samples.

Results

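SKIP-HA multi-region domains are stretches of the Chlamydomonas reinhardtii genome in which 3 or more recurrent SKIP-HA peak regions lie close together. They were chosen from the SKIP-HA peak positions themselves. On the 17 chromosomes, intervals of the 3 SKIP-HA libraries that overlapped by at least 1 bp were merged, merged regions with intervals of at least 2 libraries were kept, and kept regions at most 1000 bp apart were stitched. Of 11460 stitched units, 1165 had 3 or more regions and are called domains here, while 2135 were pairs and 8160 were single regions. The domains held 4315 of the 16745 kept regions, or 25.8%. Their number, length, spacing, recurrence in SKIP-HA and place on the chromosomes follow from the positions that chose them and are given as a description, without a test.

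The data come from chromatin immunoprecipitation followed by sequencing (ChIP-seq) with an antibody against the HA tag in this unicellular green alga. Per the labels, all 9 samples are in the CC5325 background: 3 libraries of a line named for SKIP, 3 of a line named for PAF1 and 3 of the wild type, named CrSKIP-HA, CrPAF1-HA and CrWT in the design text. The labels give the genotype or cell type of the tagged lines as skip and paf1 without naming promoter, insertion site or number of clones, and their protocol text speaks of mutants made by genome editing, so whether a tagged line still carries an untagged copy is not settled. Culture conditions and the origin of replicates in separate cultures are not given in the labels, so the spread between libraries may be technical. The p-values below come from an exact paired permutation test of 3 differences. For 3 differences of the same sign it gives 0.25 whatever their spread, so it does not measure variation between cultures. Peaks of the wild type were not analysed here, and no value below has a background from untagged cells beside it.

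SKIP belongs to the SNW-domain proteins, which take part in pre-mRNA splicing as spliceosome components and also act in transcription. The PAF1 complex associates with elongating RNA polymerase II and promotes histone modifications along transcribed genes. In Arabidopsis thaliana, SKIP is known to interact with this complex.

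On chromosomes, the SKIP-HA lists had 19631, 22225 and 24615 peaks in replicates 1, 2 and 3, and the PAF1-HA lists 16252, 16928 and 17564. At least 99.98% of the intervals in each list were 400 bp wide. The files carry no score, strand or read count, so the read depth is unknown and a missing peak is a missing call. In both tagged lines replicate 3 was labelled under different fields from the other replicates, and the submitters' processing notes name MACS3, a peak caller, only for replicates 1 and 2. The SKIP-HA replicates shared 61 to 76 identical intervals per pair, so no list was a copy of another. Coordinates are 1-based positions in the files' own build, which is not named in the sources used here. Genes under the domains and their sequences were not analysed here.

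The domains were short chains of regions rather than long blocks. Their length had a median of 3134 bp, with quartiles of 2562 and 4036 bp and a range of 1430 to 15096 bp. Exactly 3 regions were found in 700 domains (60.1%), 4 in 259, 5 in 131 and 6 or more in 75. Together the domains covered 3.61% of the 112.0 Mb over which peaks were found. The median domain had 70.2% of its length inside regions and the rest in gaps. A single region inside a domain had a median width of 572 bp, and 443 of the 4315 were wider than 1000 bp. Single regions outside the domains had a median width of 594 bp and regions of pairs 550 bp.

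The regions of a domain lay close together, with small gaps the most frequent. The 3150 gaps had a median of 328 bp with quartiles of 140 and 611 bp. Their number fell with every step in size, from 595 gaps under 100 bp to 173 of 900 bp or more, with no second peak. Centres of neighbouring regions were 999.5 bp apart at the median, with quartiles of 761 and 1287 bp. Within 50 bp below the stitching limit there were 90 gaps inside domains, and within 50 bp above it 120 gaps between stitched units. Lowering the limit by 50 bp gave 1118 domains and raising it by 50 bp gave 1202. Without 1 SKIP-HA library, where a region needs both others, 364 to 401 domains were left. The pairs, just below the number of regions required, had a median length of 1570 bp against 2712 bp for domains of exactly 3 regions.

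**Figure D1:**
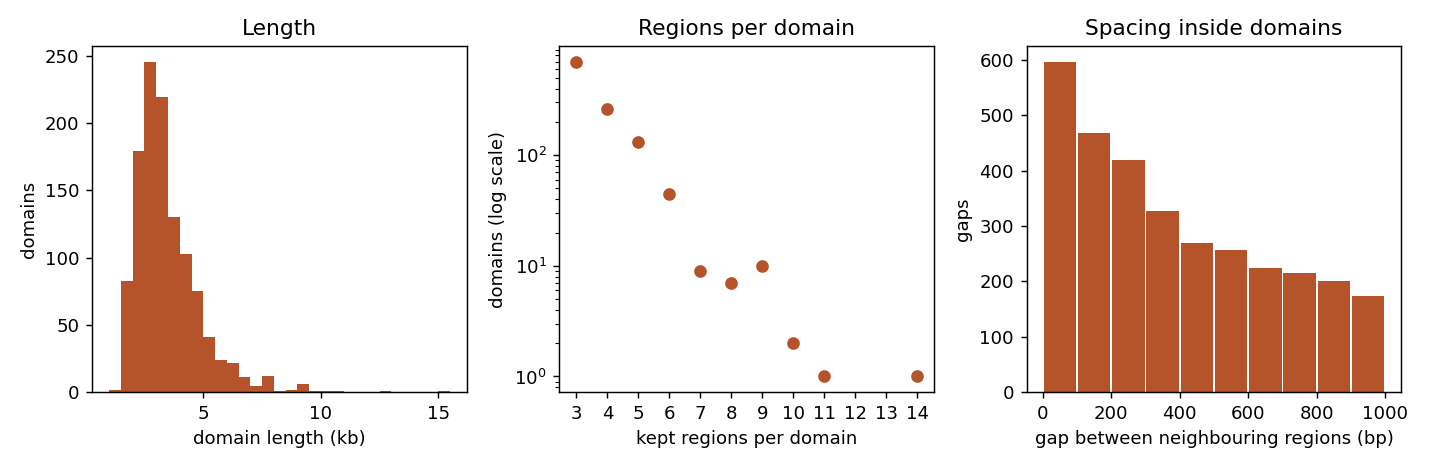
Length in kb (left), number of kept regions (middle, points on a log axis) and gap between neighbouring regions in bp (right) for the 1165 SKIP-HA domains. Lengths pile up near the median of 3134 bp with a thin tail to 15096 bp, and gaps become fewer from 595 in the first bin to 173 in the last.

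Most domains mixed regions carried by different libraries. In domains, 1840 of 4315 regions (42.6%) had intervals of all 3 SKIP-HA libraries, against 38.3% of single regions. The remaining regions lacked replicate 3 in 766 cases, replicate 2 in 776 and replicate 1, whose list was the shortest, in 933. Replicate 1 had an interval at 78.4% of domain regions, replicate 2 at 82.0% and replicate 3 at 82.2%. The 3 libraries contributed a median of 3 intervals each per domain, with at most 13, 13 and 14. Every region was present in replicate 1 for 501 domains, in replicate 2 for 596 and in replicate 3 for 575. For 1049 domains (90.0%) at least 1 library alone had an interval at every region. All regions of a domain had all 3 libraries in 90 domains (7.73%), while 194 domains (16.7%) had no such region. A domain of 3 or more intervals in a library's own list, merged and stitched the same way, reached from the first to the last region of 391 domains in replicate 1, 466 in replicate 2 and 446 in replicate 3.

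A SKIP-HA library that took no part in the choice had peaks at domain regions more often than at single regions. To measure this, domains were rebuilt from each pair of SKIP-HA libraries, with intervals of both required, and the library left out was scored. Held-out replicate 1 had a peak at 69.4% of 1347 domain regions and at 60.2% of 6633 single regions. Held-out replicate 2 had one at 73.9% and 64.8%, and held-out replicate 3 at 73.3% and 67.0%. Regions in domains were met more often by 8.20 ± 1.63 percentage points (SD, n = 3), in 3 of 3 libraries. The 3 differences are not independent, as each library also helped to build the regions at which the others were scored. The two-sided exact paired permutation p was 0.25, the smallest that 3 pairs allow, so this design cannot reach 0.05.

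The domains were found on every chromosome but with unequal density. Chromosome 5 had 16.3 domains per Mb and chromosome 4 had 15.3, followed by chromosome 14 with 12.9, while chromosome 3 had 7.35 and all chromosomes together 10.4. In the lists of single SKIP-HA libraries, chromosome 4 had 17.9, 18.6 and 23.5 domains per Mb and chromosome 5 had 15.7, 19.0 and 21.0. Chromosome 3 had between 10.8 and 14.6 and lay below both in each library, but was the lowest in none. Chromosome 15 was lower in replicates 1 and 2, at 10.1 and 10.6, and chromosome 7 in replicate 3, at 13.4. In replicate 3, chromosome 14 stood above chromosome 5, at 21.9. On chromosome 4, 34.0% of kept regions lay in domains and on chromosome 5 35.2%, against 19.5% on chromosome 3. Chromosome 15 combined the fewest kept regions per Mb, 108, with 33.9% of them in domains, and it had the longest stretch without a domain, 1165565 bp. On chromosome 16, 98 domains covered 4.47% of the length spanned by peaks.

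Over the 17 chromosomes the density of domains followed that of kept regions, with Spearman's rho of 0.92 and Pearson's r of 0.70. Both measures come from the same lists. PAF1-HA domains built by the same rule numbered 815, and their density had a rho of 0.76 and an r of 0.61 with that of SKIP-HA domains. Chromosome 11 had the lowest PAF1-HA density, 3.13 per Mb, beside 8.93 SKIP-HA domains per Mb. That rests on 14 domains from regions of at least 2 PAF1-HA libraries. In the lists of single PAF1-HA libraries, chromosome 11 had 6.70, 7.81 and 7.81 per Mb, and in replicate 2 chromosomes 2, 3 and 15 were lower, at 7.74, 7.56 and 7.55. Chromosome 5 had 8.27 PAF1-HA domains per Mb, little more than the 7.28 of all chromosomes. These relations are descriptions of the chromosomes, which share libraries and differ in length.

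**Figure D2:**
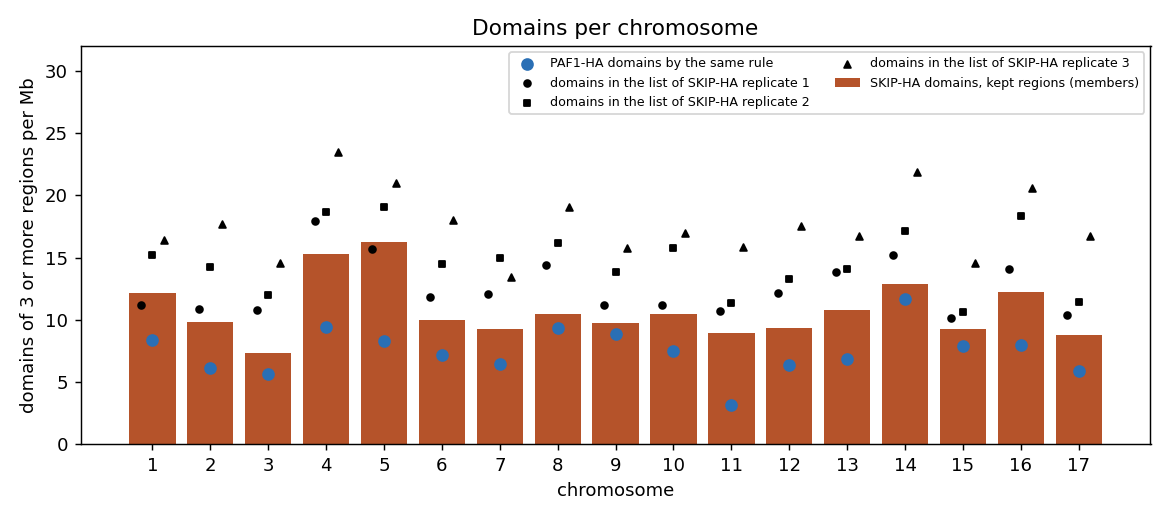
Domains of 3 or more regions per Mb on each chromosome. Bars show the 1165 SKIP-HA domains, black symbols the domains in each SKIP-HA library's own list and blue points the 815 PAF1-HA domains. Chromosomes 4 and 5 stand highest among the bars, at 15.3 and 16.3 per Mb, and chromosome 11 has the lowest PAF1-HA point, at 3.13 per Mb for regions of at least 2 PAF1-HA libraries.

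Neighbouring domains were a median of 57889 bp apart, and 128 of 1148 neighbouring pairs (11.1%) were at most 5000 bp apart. Chains of domains with at most 5000 bp between them numbered 109 and held 237 domains, of which 4 chains had 4 domains. The longest of these 4 lay on chromosome 4 at 692127 to 718270, with 19 regions over 26144 bp. It held 13, 19 and 26 SKIP-HA peaks and 18, 18 and 13 PAF1-HA peaks in replicates 1, 2 and 3. Another, on chromosome 15, ran from 1605192 to 1627144, a further one on chromosome 8 from 1012901 to 1031430 and the last on chromosome 4 from 1832924 to 1849765. The chain on chromosome 8 had 15, 14 and 14 SKIP-HA and 15, 15 and 16 PAF1-HA peaks, nearly equal in all 6 libraries. This distance limit and the chains were chosen after the positions were seen.

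PAF1-HA peaks took no part in choosing the domains, and nearly every domain contained a peak of at least 1 PAF1-HA library. Only 14 of 1165 domains (1.2%) had no PAF1-HA peak of any library anywhere over their span. The share was 6.98% of pairs and 19.5% of all stitched units, which include shorter units. By single library, 131 (11.2%), 106 (9.1%) and 111 (9.5%) domains had no peak of PAF1-HA replicates 1, 2 and 3. No PAF1-HA region of at least 2 libraries was found over 124 domains (10.6%). Those values are given without a share for pairs beside them. Per region, 19.1% of domain regions had no PAF1-HA peak, against 22.4% of regions in pairs, 25.4% of single regions and 23% of all kept SKIP-HA regions. The domains held 16.6% ± 0.405 of all PAF1-HA peaks (SD, n = 3) in 3.61% of the length. That share has none for pairs or single regions beside it. Per base, PAF1-HA peaks covered 25.7% ± 0.457 of whole domains and 27.2% ± 0.499 of single SKIP-HA regions.

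In each PAF1-HA library, regions in domains carried a peak more often than single SKIP-HA regions. Replicates 1, 2 and 3 of PAF1-HA had peaks at 53.9%, 55.9% and 55.4% of domain regions. At single regions the values were 47.1%, 48.7% and 47.9%, so the ranges did not overlap. The mean difference was 7.19 ± 0.362 percentage points (SD, n = 3), positive in 3 of 3 libraries, with an exact paired permutation p of 0.25, two-sided, the smallest possible. It was 11.8 to 13.5 points when the domains were rebuilt without 1 SKIP-HA library. Regions of pairs lay between, at 51.7% ± 0.571. When the PAF1-HA peak centre had to lie within 200 bp of the region centre, a window equal for all regions, the values were 37.9% ± 0.232 and 34.0% ± 0.625, a difference of 3.85 ± 0.857 points.

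The difference between domain regions and single regions was larger among regions present in all 3 SKIP-HA libraries than among the others. In the former, PAF1-HA replicates 1, 2 and 3 had peaks at 68.2%, 69.7% and 69.8% of 1840 domain regions. At 3125 single regions they had peaks in 59.3%, 58.8% and 59.6%, although the single regions were wider, with a median of 690 bp against 621 bp. Among regions of 2 SKIP-HA libraries, the means were 44.6% ± 1.16 for 2475 domain regions and 40.9% ± 1.44 for 5035 single regions (SD, n = 3). With the equal window, domain regions exceeded single regions by 7.64 ± 1.23 points in the first kind, and by -0.12 ± 1.30 points in the second. The gap between these differences was 7.76 ± 1.96 points and positive in 3 of 3 PAF1-HA libraries (exact paired permutation p = 0.25, the smallest possible). This split by recurrence was added after the data had been seen.

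**Figure D3:**
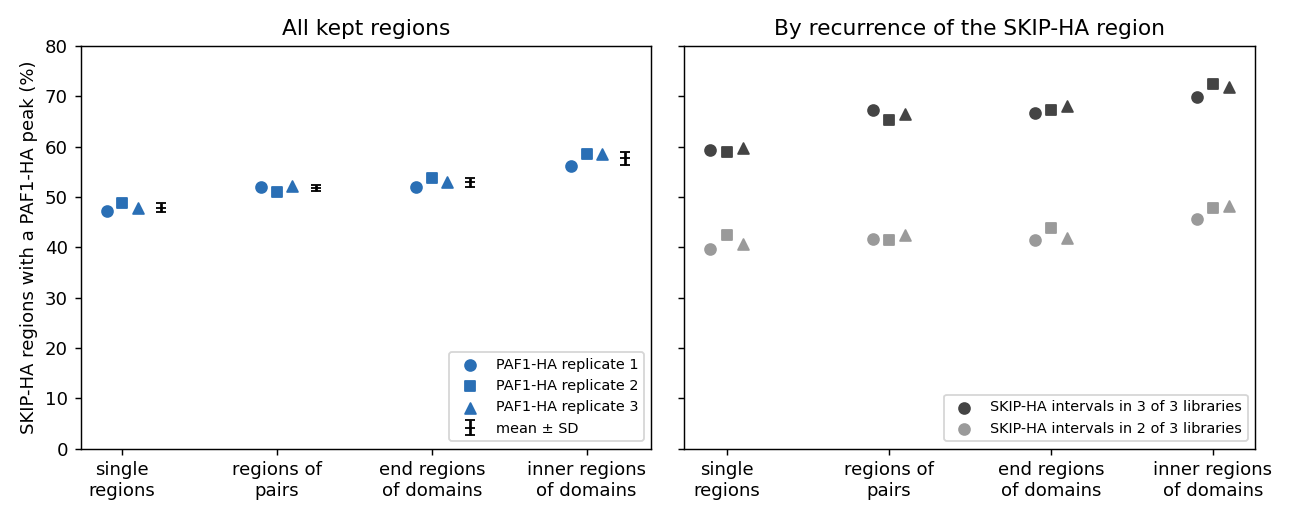
Share of SKIP-HA regions with a PAF1-HA peak, in %, for single regions, regions of pairs, and end and inner regions of domains. Symbols are the 3 PAF1-HA libraries and bars the mean ± SD (left); the right panel splits the regions by SKIP-HA recurrence. In each library single regions have the lowest share, 47.9% on average, and inner regions of domains the highest, 57.7%.

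Inside domains, PAF1-HA peaks were more frequent at inner than at end regions. Inner regions had a peak in 56.2%, 58.5% and 58.4% of cases in PAF1-HA replicates 1, 2 and 3. End regions had one in 52.0%, 53.7% and 52.9%, below the inner value of the same library each time. The difference, ends minus inner regions, was -4.82 ± 0.707 percentage points (SD, n = 3; exact paired permutation p = 0.25, two-sided, the smallest possible). It was -5.51, -8.90 and -5.52 points when the domains were rebuilt without SKIP-HA replicate 1, 2 and 3. End regions were slightly wider, with a median of 582 bp against 562 bp. No PAF1-HA peak of any library was found at 21.5% of end regions and at 16.4% of inner regions.

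PAF1-HA peaks also lay in the gaps between SKIP-HA regions. Of 3150 gaps, 2075 (65.9%) were met by a PAF1-HA interval of any library, including intervals that reached out of a neighbouring region. PAF1-HA peaks covered 31.0% ± 0.300 of the bases in regions, 13.6% ± 1.24 of those in gaps, 10.4% ± 0.621 of 1000 bp flanks outside the domains and 5.91% ± 0.225 of all chromosomes (SD, n = 3). Single SKIP-HA regions were covered to 27.2% ± 0.499 and their flanks to 7.01% ± 0.433. Whole domains, gaps included, were covered to 25.7% ± 0.457. By peak centre, 14.8% ± 1.41 of the PAF1-HA peaks within domains lay in gaps, which make up 30.2% of the domain length. SKIP-HA coverage of the gaps, 3.70% ± 0.457, is low by construction, as gaps hold only intervals of 1 library.

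**Figure D4:**
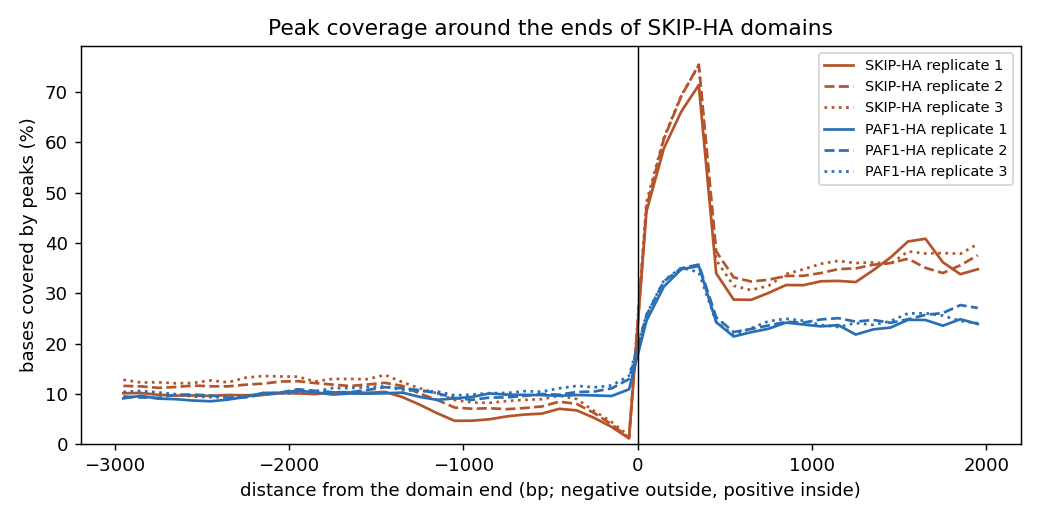
Percent of bases covered by peaks in 100 bp bins around all domain ends, both ends of each domain turned to face inward and bins inside counted up to the middle of the domain. SKIP-HA coverage near the end is set by the rule, while PAF1-HA coverage, which the rule did not use, rises from 10.9% to 13.6% in the last 100 bp outside to 24.5% to 25.8% in the first 100 bp inside in the 3 libraries.

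The 14 domains without a PAF1-HA peak had a median length of 2596.5 bp and few regions. They measured 1882 to 4408 bp, 12 had 3 regions and 2 had 4. They lay on 7 chromosomes, 4 of them on chromosome 4 and 3 on chromosome 12. Of their 44 regions, 11 had all 3 SKIP-HA libraries, and 7 of the 14 domains had no such region. The count rested on all PAF1-HA lists: without any 1 of these libraries it was 32 to 34. Without SKIP-HA replicate 1, 2 or 3, which left fewer domains, it was 5 of 401, 5 of 369 and 3 of 364. The nearest PAF1-HA peak outside was 91 to 3815 bp away, and for 7 of them it was within 1000 bp.

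The longest of these 14 lay on chromosome 12 at 7925632 to 7930039, with 4 regions over 4408 bp. It had 1, 3 and 4 SKIP-HA peaks in replicates 1, 2 and 3, so replicate 1 met 1 region only. Without SKIP-HA replicate 1 or 2 the unit that overlapped it most measured 1885 and 747 bp. Without replicate 3 no unit overlapped it. Next came chromosome 2 at 1307316 to 1311500, with 4 regions and 4, 3 and 4 SKIP-HA peaks. Here all 3 libraries took part, though only 1 of the 4 regions had all of them, and the nearest PAF1-HA peak was 1582 bp away. Without SKIP-HA replicate 1, 2 or 3 the unit that overlapped it most measured 817, 2083 and 817 bp. On chromosome 12, the domain at 1086287 to 1089851 had 4, 4 and 3 SKIP-HA peaks and that at 1332108 to 1335253 had 1, 4 and 3. Chromosome 5 at 2569478 to 2572520 had 2, 5 and 2. A single domain of the 14, on chromosome 5 at 1814577 to 1816626, had all 3 SKIP-HA libraries at each of its 3 regions, with 3 peaks in each library and the nearest PAF1-HA peak 2182 bp away. It is named after its values were seen.

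At the ends, 724 domains had a PAF1-HA peak at both end regions, 381 (32.7%) at exactly 1 and 60 at neither, of which 46 had PAF1-HA peaks inside. Exactly 1 of the 2 regions had a PAF1-HA peak in 30.1% of pairs, and exactly 1 end region did in 31% of pairs and domains together, so the share in domains was close to this background. The peak lay at the end with lower coordinates in 193 domains and at the other end in 188. In the 381 domains, the end without a PAF1-HA peak had a stretch free of such peaks with a median of 1197 bp, quartiles of 805 and 1656 bp and a maximum of 3774 bp. The end region with PAF1-HA had all 3 SKIP-HA libraries in 45.9% of the 381 and the end region without in 23.4%, at median widths of 592 and 568 bp. Rebuilt without 1 SKIP-HA library, 86 to 97 domains had a PAF1-HA peak at exactly 1 end.

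The end without a peak differed between PAF1-HA libraries in some domains and was shared in others. Replicates 1, 2 and 3 had a peak at exactly 1 end in 570, 544 and 546 domains. The same single end was found in all 3 libraries for 125 domains (10.7%) and in 2 libraries, with the other at both ends or neither, for 259. In 166 domains (14.2%), different PAF1-HA libraries had their only end peak at opposite ends. No share for pairs stands beside these counts, so they describe the domains and do not set them apart from other units.

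The longest ends free of PAF1-HA peaks beside an end with one were as follows. On chromosome 1 at 6977754 to 6982025, with 5 regions and 6, 5 and 5 SKIP-HA peaks, 3774 bp were free and the single PAF1-HA peak came from replicate 2 alone. On chromosome 9 at 2678306 to 2682072 the free end measured 3411 bp, with 5, 4 and 1 SKIP-HA peaks and 1 PAF1-HA peak, in replicate 3. On chromosome 6 at 5543065 to 5546945 it measured 3353 bp. There 3, 2 and 3 SKIP-HA peaks stood beside 2, 3 and 1 PAF1-HA peaks, all at the end with higher coordinates, so every PAF1-HA library showed the same side. On chromosome 3 at 78581 to 93676 the free end measured 3249 bp and on chromosome 6 at 8636173 to 8639501 it measured 3154 bp, the latter with 1 PAF1-HA peak, in replicate 1.

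The longest domain, on chromosome 3 at 78581 to 93676, had 14 regions over 15096 bp with 12, 10 and 14 SKIP-HA peaks in replicates 1, 2 and 3. Only 4 of its regions had all 3 libraries. PAF1-HA had 9, 6 and 3 peaks there, and the 3 regions at the end with higher coordinates had none. The intervals of each library alone reached over 13532, 14090 and 14943 bp of it. With an overlap of 200 bp required for merging, the stitched unit that overlapped it most measured 8191 bp, and without 1 SKIP-HA library, where both others are required at each region, 1755 to 5259 bp. The second, on chromosome 15 at 1806164 to 1818731, had 11 regions over 12568 bp with 8, 10 and 13 SKIP-HA peaks. Its PAF1-HA peaks, 10, 9 and 5, met 10 of the 11 regions, yet 0 bp of it lay in a PAF1-HA domain of 3 or more regions.

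The third, on chromosome 2 at 788155 to 798947, had 10 regions over 10793 bp, with 13, 9 and 10 SKIP-HA and 9, 8 and 14 PAF1-HA peaks. Every region had a PAF1-HA peak and 6 had all 3 PAF1-HA libraries. The fourth, on chromosome 16 at 998934 to 1008940, had 9 regions with 8, 8 and 10 SKIP-HA and 6, 8 and 3 PAF1-HA peaks. Its regions 3, 4, 5 and 9, counted from the lower coordinate, had no PAF1-HA peak. The fifth, on chromosome 7 at 960842 to 970661, had 9 regions over 9820 bp with 8, 10 and 6 SKIP-HA peaks and 1, 2 and 4 PAF1-HA peaks. There 5 of 9 regions had no PAF1-HA peak, 4 of them in a row. Without 1 SKIP-HA library the unit that overlapped most measured 937 to 6918 bp for the chromosome 15 domain, 1872 to 7784 bp for chromosome 2, 2828 to 3570 bp for chromosome 16 and 662 to 5212 bp for chromosome 7.

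The 90 domains in which every region had all 3 SKIP-HA libraries had a median length of 2759.5 bp, and 78 of them had a PAF1-HA peak at every region. The longest of the 90 was on chromosome 1 at 1641757 to 1648446, with 5 regions over 6690 bp, 9, 10 and 7 SKIP-HA peaks and 8, 8 and 7 PAF1-HA peaks. It measured 6397 bp or more without SKIP-HA replicate 1 or 3 and fell to 2899 bp without replicate 2. On chromosome 1 at 3228773 to 3234961, 6 regions had 7, 8 and 7 SKIP-HA and 7, 7 and 6 PAF1-HA peaks. On chromosome 16 at 4760053 to 4765395, 6, 6 and 5 SKIP-HA peaks stood beside 2, 4 and 4 of PAF1-HA. The domains on chromosome 9, from 3857631 to 3862996, and on chromosome 12, from 1790566 to 1795846, had fewer PAF1-HA peaks, with 1, 0 and 4 and with 2, 3 and 1, beside 5 to 7 SKIP-HA peaks per library. The latter had none at either end region.

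A peak of every PAF1-HA library at every region was found for 49 domains (4.21%), and any PAF1-HA peak at every region for 602 (51.7%). No share for pairs or single regions stands beside these 49 and 602 domains, so they are given as a description. Per region, all 3 PAF1-HA libraries had a peak at 1208 of 4315 domain regions. They did so at 1088 of 4270 regions of pairs and 1710 of 8160 single regions. The longest of the 49 lay on chromosome 3 at 2463176 to 2467290, with 3 regions over 4115 bp and 4, 4 and 4 SKIP-HA and 4, 3 and 4 PAF1-HA peaks. Domains on chromosome 4 from 1872934 to 1876761 and on chromosome 11 from 638079 to 641611 followed, each with 3 regions. The former had 4, 4 and 5 PAF1-HA peaks, which covered 3636 of its 3828 bp when the libraries were merged. Of all 1165 domains, 376 (32.3%) overlapped a PAF1-HA domain of 3 or more regions, with a median of 77.1% of the length covered in those 376. Of 815 PAF1-HA domains, 373 (45.8%) overlapped a SKIP-HA domain. No share for pairs, single regions or all stitched units stands beside these overlaps. They are a description and do not show more overlap than at other SKIP-HA units.

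**Figure D5:**
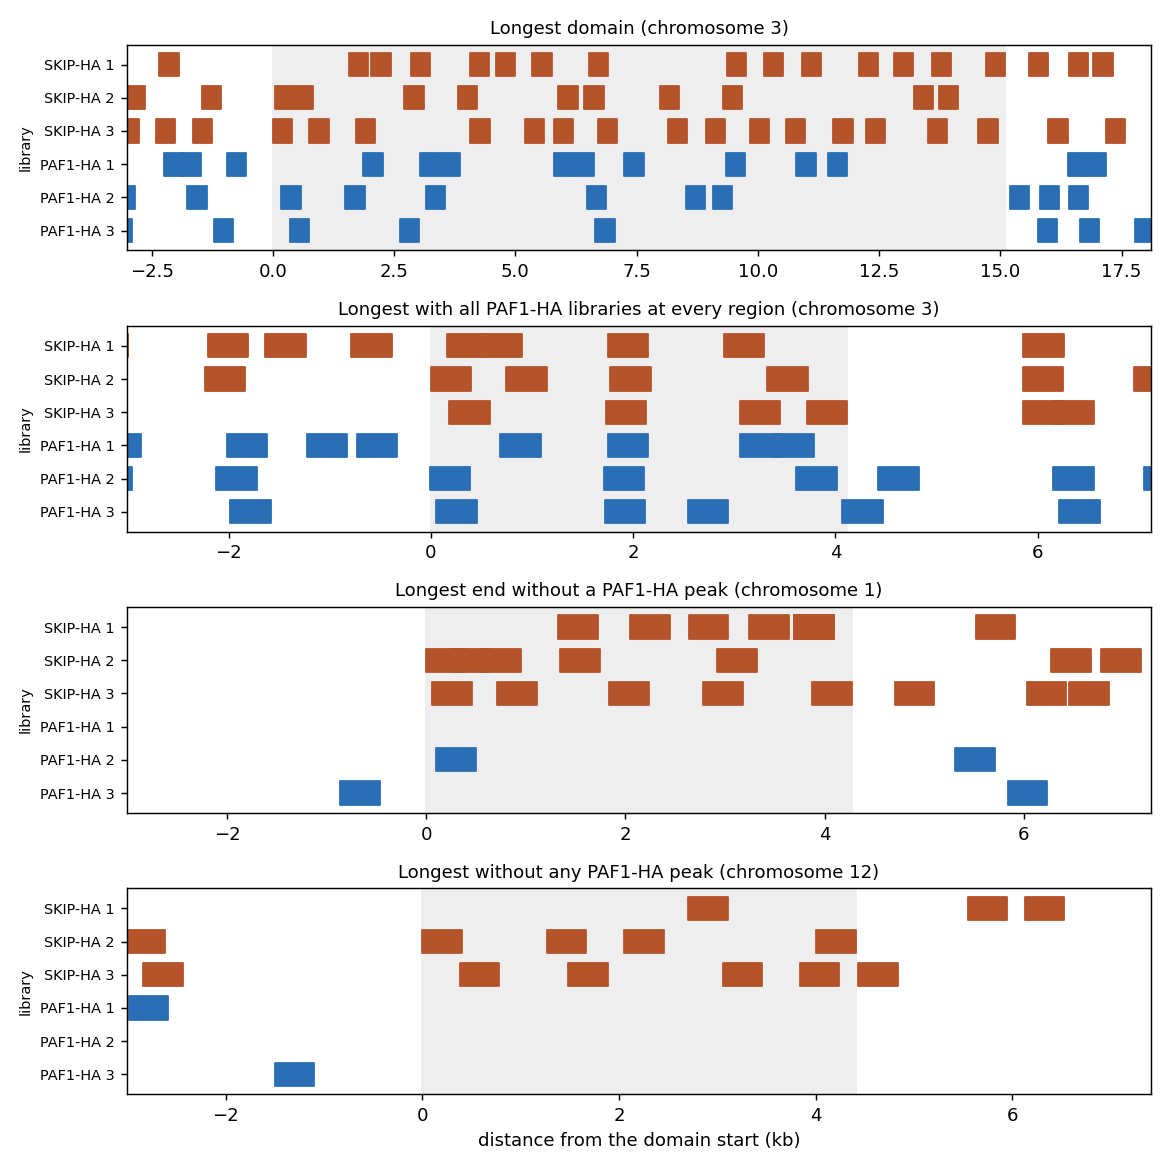
Peaks of the 6 libraries in and around 4 domains, by distance from the domain start in kb, with the domain shaded and a scale of its own for each panel. SKIP-HA peaks are brown and PAF1-HA peaks blue. The longest domain has PAF1-HA peaks at 9 of its 14 regions and none at the last 3, the second panel has all 6 libraries at each region, and the lower panels show a free end of 3774 bp and a domain without any PAF1-HA peak.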

How the data were processed

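The authors deposited 1 peak list per library, each line holding a sequence name, a start and an end; the deposited columns are positions in bp, with no score, fold or p-value. Per the submitters' processing notes, Bowtie2 and HOMER are named for 9 samples and MACS3 for 4 of them, replicates 1 and 2 of both tagged lines, with no role or version. The build, the control library and the calling settings are, for all files, not given in the sources used here. A gene table of another, named assembly was at hand and not used, since its match to the files was not shown.

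Intervals were handled in Python 3.11.15 with numpy 2.4.6 and pandas 2.3.3; matplotlib 3.10.9 made the figures. The interval code was tested on simulated lists. Merging used an overlap of 1 bp, stitching a distance of 1000 bp, and a PAF1-HA peak at a region an overlap of 1 bp. The paired differences of the 3 libraries were tested by exact permutation of their signs, two-sided, with 0.25 the smallest p possible. Alternatives were other distances (500 and 2000 bp), overlaps of 200 bp, regions of 3 of 3 libraries and leaving out each library.

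The members, lists and tests were chosen with earlier results of these data known. Domains named are the 5 longest, the 5 longest without PAF1-HA peaks, the 5 with the longest end free of them beside an end with one, the 5 longest with every region in 3 of 3 SKIP-HA libraries and the 3 longest with every PAF1-HA library at every region. Others are said to be named after their values were seen.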

Additional observations from a re-analysis of the deposited data

Results flagged for a closer look

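Domains of 3 or more SKIP-HA regions were also found on sequences other than the chromosomes, which no comparison above used. By the same rule there were 5 of them. They are given because they lie outside the data used above, as a description of the SKIP-HA positions that chose them, with no test and no wild-type values beside them. The longest lay on the plastome at 137495 to 147865, with 10 regions over 10371 bp, 14, 12 and 9 SKIP-HA peaks and 8, 7 and 10 PAF1-HA peaks in replicates 1, 2 and 3. A plastome domain at 45558 to 50703 had 2, 6 and 5 SKIP-HA and 6, 6 and 6 PAF1-HA peaks. The third on the plastome, at 150099 to 152821, had 4, 4 and 0 SKIP-HA and 3, 2 and 3 PAF1-HA peaks. The remaining 2 lay on unplaced contigs, with 5 regions over 4666 bp and 4 regions over 3229 bp.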

How the results depend on the processing

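The number of domains moved most with the number of libraries required and with a shorter stitching distance. It was 637 at a stitching distance of 500 bp and 169 with regions of 3 of 3 SKIP-HA libraries, against 958 with merging at 200 bp, and 364 to 401 when a SKIP-HA library was left out, where both others are then required by construction. Domains with a PAF1-HA peak at exactly 1 end numbered 190 of 637 and 24 of 169 under the first 2 of these settings. They numbered 86 to 97 of 364 to 401 without a SKIP-HA library and 451 to 486 without a PAF1-HA library. When only PAF1-HA regions of at least 2 libraries counted, there were 526. Domains without any PAF1-HA peak numbered 23 of 958 with merging at 200 bp and 1 of 169 with regions of 3 of 3 libraries. They numbered 3 to 5 of 364 to 401 without a SKIP-HA library and 32 to 34 without a PAF1-HA library. The number was 124 when only PAF1-HA regions of at least 2 libraries counted. The higher PAF1-HA share at domain regions than at single regions kept its sign under all alternatives run but 1, with regions of 2 of 3 SKIP-HA libraries and the equal window (chosen after seeing the data, as were limits 50 bp lower and higher), at -0.12 points; the cause was not tested. Over leaving out each library it ranged from 7.02 to 13.5 points. The mean difference between end and inner regions kept its sign under every alternative, from -8.90 to -4.45 points over leaving out each library. With regions of 3 of 3 SKIP-HA libraries it was -5.55 points. There the exact paired permutation p was 0.5, so not every PAF1-HA library had the lower share at end regions. The held-out difference kept its sign under every alternative, from 5.56 to 13.8 points. With 3 pairs no p could pass 0.05, so these signs carry no call. Lengths of 20 of the 22 named domains moved by more than the SD over libraries at a distance of 500 bp, and of 18 without any 1 SKIP-HA library. No paired analysis was possible because the SKIP-HA lists chose the domains, which leaves no test between the SKIP-HA and PAF1-HA groups whose shared replicate numbers could form a block. The tests given compare kinds of region within the same library and are paired in that sense. No peak score was there for a stricter threshold. The read depth is unknown, so how many missing peaks are missed calls cannot be told.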
